A study of Mus musculus with 90 samples.

Results

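Loss of the mitochondrial uncoupling protein UCP1 in the brown fat of mice that already lack the hormone FGF21 is described here across all genes. The 11 libraries used are the 6 brown adipose tissue (BAT) libraries labelled as double knockout (dKO) and the 5 labelled as FGF21 knockout (FGF21 KO), out of 90 libraries from 4 tissues. Both groups lack FGF21, so by their labels dKO and FGF21 KO differ in UCP1. The mice were males homozygous for each deleted allele. They grew up at 30 °C, entered a climate chamber at 10 to 12 weeks of age, spent 12 days at 18 °C and then 3 weeks at 5 °C, and had no food for the last 2 to 3 hours. The design text once writes FGF12 in the name of the double knockout, whereas the sample labels and the title write FGF21. The 6 UCP1 KO and 5 wild-type (WT) BAT libraries of the same experiment give the same loss in mice with FGF21. The labels do not say which libraries come from the same mouse or litter, nor in which cells or when the genes are deleted, so the p-values measure the spread between the labelled libraries.

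Brown adipocytes burn fatty acids and glucose in mitochondria, and UCP1 lets protons return across the inner membrane so that the energy is released as heat. FGF21 is secreted by liver and by stressed or cold-exposed fat and acts through FGF receptors together with the co-receptor beta-Klotho. Its gene is a target of ATF4, the transcription factor of the integrated stress response, which also drives amino acid synthesis and transport genes. Mice without UCP1 survive long cold exposure when they are accustomed to it stepwise, as was done here.

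The libraries held 34.8 to 50.7 M counts in dKO and 35.2 to 47.9 M in FGF21 KO, where M stands for 1000000. Levels are given as counts per 1000000 (CPM) on library sizes scaled by TMM, a method that aligns the bulk of genes between libraries. The 10 genes with the highest counts held 28.2% to 30.5% of the counts in FGF21 KO and 15.8% to 21.7% in dKO, and the scaling factors lay at 0.833 to 0.873 in FGF21 KO and 1.07 to 1.2 in dKO. With plain total counts the median gene moved from -0.01 to 0.37 on the log2 scale, so log2 fold changes shift upward under that scaling, and some calls of decreases, several of them larger than this shift, are lost. Brown fat genes were present in all 11 libraries. The mean log2(CPM + 1) of 31 brown and beige adipocyte genes was 7.05 to 7.17 in FGF21 KO and 6.85 to 6.96 in dKO. Of the 31, 10 were higher and 13 lower in dKO. Dio2, one of the higher ones, lay between 112 and 505 CPM. Skeletal muscle RNA varied between libraries within both groups. The mean log2 CPM of 18 muscle fibre genes was 7.69, 2.2, 2.0, 9.19 and 1.76 in FGF21 KO replicates 1 to 5 and 1.84, 6.0, 8.0, 1.86, 1.6 and 6.16 in dKO replicates 1 to 6. None of the 18 muscle genes passed the edgeR test between the groups (0 at an unadjusted p under 0.05), and DESeq2 called 0 higher and 0 lower. Fits without the libraries high in muscle genes leave out those above 7 on this scale, which keeps dKO replicates 2 and 6. The median log2 fold change of the 18 genes is then 2.9 instead of -1.31, so muscle RNA is not balanced in those fits. In bulk tissue, fewer cells of a type and less RNA per cell cannot be told apart.

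Ucp1 transcript fell in the dKO but was not absent. It stood at 11471, 11591, 11326, 10998 and 10612 CPM in the 5 FGF21 KO libraries and between 1144 and 1486 CPM (median 1401) in the 6 dKO libraries, so every dKO library was below every FGF21 KO library. The means were 11199.7 ± 397 CPM (SD, n = 5) in FGF21 KO and 1354 ± 143 CPM (SD, n = 6) in dKO (log2 fold change -3.05, SE 0.12, adjusted p = 4.82e-14), an 8.27-fold lower level in dKO. The exons behind the remaining Ucp1 reads cannot be told from a gene-level count. Fgf21 was near zero in both groups, with 2, 1, 0, 13 and 1 counts in the FGF21 KO libraries and 0 or 1 count in each dKO library. For comparison, Fgf21 had 8 to 67 counts in WT libraries and 605 to 2137 in UCP1 KO libraries. The FGF21 KO library with 13 counts is replicate 4, which also has the highest muscle gene level. Nnt, a transhydrogenase that makes mitochondrial NADPH, was at 8.07 ± 5.46 CPM (SD, n = 5) in FGF21 KO and 5.33 ± 2.3 CPM (SD, n = 6) in dKO and did not pass the test (adjusted p = 0.467).

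Most tested genes differed between brown fat with and without UCP1 when FGF21 was absent. Of 16033 genes tested with edgeR's quasi-likelihood test, 9179 (57.3%) passed a Benjamini-Hochberg adjusted p of 0.05, 4697 (29.3%) higher and 4482 (28.0%) lower in dKO. With total-count scaling the split was 9350 higher and 1369 lower. Counts of called list members for dKO against FGF21 KO are read against the 29.3% and 28.0% of all genes. Those under total-count scaling are read against that other split. In 6632 genes (41.4%) the 2 groups did not overlap at all. Among genes that changed by more than 2-fold, 1806 (11.3%) rose and 714 (4.45%) fell, and past 8-fold 222 (1.38%) rose and 43 (0.268%) fell. Large increases were therefore more frequent than large decreases, while the median change over all genes was -0.01.

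The steepest increases belonged to genes that are close to silent in brown fat with UCP1. Vmn2r3, which belongs to the vomeronasal pheromone receptor family, had 1 count in the 5 FGF21 KO libraries together and 276 to 509 counts in each dKO library. Its adjusted p was 5.01e-14, and no fold is given against 1 count. Csn3, the milk protein kappa-casein, had 0, 1, 1, 6 and 0 counts in FGF21 KO and 191 to 747 counts per library in dKO (adjusted p = 1.18e-07). Aldh1b1, a mitochondrial aldehyde dehydrogenase, was at 0.265, 0.316, 0.499, 0.247 and 0.428 CPM in the 5 FGF21 KO libraries and between 18.1 and 31.3 CPM (median 26.2) in the 6 dKO libraries (log2 fold change 6.21, SE 0.28, adjusted p = 4.86e-13). Soat2, which esterifies cholesterol, went from a mean of 0.0853 to 8.76 CPM, and Sptlc3, a subunit of the serine palmitoyltransferase that starts sphingolipid synthesis, from 0.157 to 11.2 CPM. Akr1b7, an aldo-keto reductase, rose from 0.117 to 14.3 CPM. Without FGF21 KO replicate 4 the log2 fold change went from 6.94 to 7.78 for Akr1b7 and from 7.56 to 9.11 for Csn3. Epn3, an endocytic epsin, went from 0.16 to 21.7 CPM, and Prr32, Sh2d6 and Ceacam16 complete the 10 largest increases with log2 fold changes of 7.36, 6.69 and 6.87. All 10 were chosen for having no overlap between the groups and a mean of at least 5 CPM in the higher group, so their separation is a description.

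The steepest decreases left the genes at means between 0.12 and 9.7 CPM in dKO. Ntrk3, the receptor of the neurotrophin NT-3, stood at 188, 228, 245, 141 and 213 CPM in the 5 FGF21 KO libraries and between 1.61 and 5.91 CPM (median 3.08) in the 6 dKO libraries. That is a 56.7-fold lower mean (log2 fold change -5.83, SE 0.38, adjusted p = 2.33e-10). Sorcs2, a sortilin-related sorting receptor, fell from 101 to 6.79 CPM, and Slc2a5, the fructose transporter GLUT5, from 60.4 to 4.35 CPM. Ttc25, known from cilia, fell from 139 to 9.7 CPM, and Pnldc1, an exonuclease that trims piRNAs, from 37.7 to 2.24 CPM. Rspo4, a secreted amplifier of Wnt signalling, fell from 11.8 to 0.249 CPM. The gastric proton pump subunit Atp4b, the tight junction protein Tjp3, the hypoxia-responsive Ankrd37 and the receptor-type phosphatase Ptprn2 had log2 fold changes of -4.25, -4.14, -5.37 and -3.71.

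UCP1 loss with FGF21 present, measured as UCP1 KO against WT, shares no library with the contrast above. It called 9634 genes (60.1%), 30.2% of all tested genes higher and 29.9% lower. Of the genes called without FGF21, 88.2% were also called with FGF21, and 84.1% the other way round. Of the 8098 genes called in both, 8096 had the same direction. Across the 16033 genes the 2 sets of log2 fold changes had a Pearson r of 0.93 and a Spearman rho of 0.919, which describes genes of the same tissue that are not independent of each other. The plot of both responses shows most genes near the line of equal change.

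**Figure D1:**
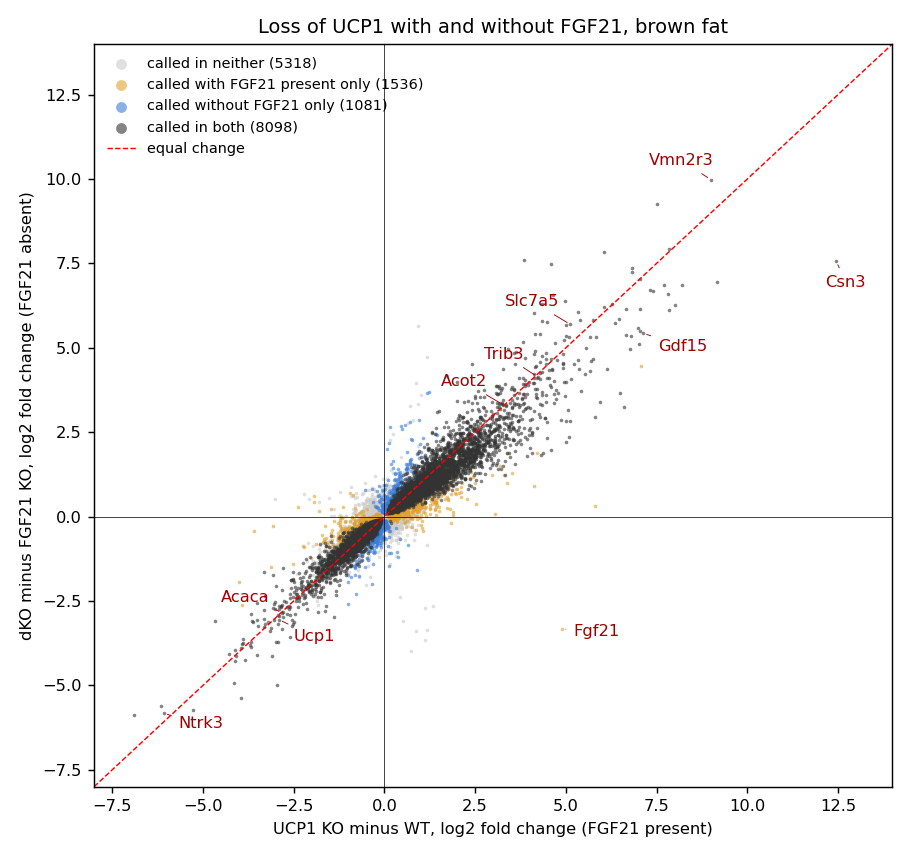
Log2 fold change of 16033 genes in brown fat for UCP1 KO minus WT (horizontal axis) and dKO minus FGF21 KO (vertical axis), coloured by which comparison called the gene, with 10 genes named and the line of equal change dashed. Of the 8098 genes called in both, 8096 changed in the same direction, and Fgf21 lies far below the line.

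The difference between both responses was tested directly, gene by gene. No gene passed at an adjusted p of 0.05 in edgeR, where the smallest adjusted p was 0.0728 and 1166 genes (7.27%) had an unadjusted p under 0.05. DESeq2 called 23 genes, 6 higher and 17 lower in the response without FGF21, and each of the 23 had an unadjusted edgeR p under 0.05. Both tools used the same counts, so this overlap is no independent evidence. Among 10716 genes with at least 5 CPM in some group, the absolute difference had a median of 0.088 and a 95th percentile of 0.428 on the log2 scale, against a median standard error of 0.112. It was over 1 in 58 of these genes. For Trib3, the difference was -0.09, 95% interval -0.62 to 0.44; for Acaca it was -0.03, 95% interval -1.03 to 0.97; and for Slc7a5 it was 0.57, 95% interval -0.02 to 1.16. All 3 intervals include 0 and leave room for changes in either direction. Among the 2520 genes called with over 2-fold change in dKO against FGF21 KO, 1470 (58.3%) had the smaller response in that comparison. These genes were selected by that comparison alone, and the share that equal responses would give was not tested.

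The genes that DESeq2 called for the difference were chosen for naming after their values were seen. Besides Fgf21 itself they include Csf1, the growth factor of macrophages, which averaged 16 ± 2.11 CPM in WT, 50.2 ± 8.65 in UCP1 KO, 18.4 ± 3.21 in FGF21 KO and 29.7 ± 3.1 in dKO. Its increase on UCP1 loss was 1.65 ± 0.13 with FGF21 and 0.69 ± 0.12 without (log2 fold change ± SE), a difference of -0.95 (SE 0.17, unadjusted p = 1.6e-05, adjusted p = 0.0816) in edgeR. The scavenger receptor Stab1 of macrophages, the thymidine kinase Tk1 of dividing cells and the lipocalin Lcn2 also rose less without FGF21, with differences of -0.61, -1.17 and -1.91 and edgeR adjusted p of 0.126, 0.192 and 0.276. Ak4, a mitochondrial adenylate kinase, fell by 3.56 without and 2.6 with FGF21 on the log2 scale. Cpt1a, the liver form of the carnitine palmitoyltransferase that admits fatty acids to mitochondria, rose by 1.56 against 2.12.

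Brown fat identity genes moved in both directions. Of 31 tested brown and beige adipocyte genes, 10 were higher and 13 lower in dKO, with a median log2 fold change of 0.04. Over all genes 29.3% were higher and 28.0% lower, and the median was -0.01. With total-count scaling the counts were 15 higher and 9 lower. Dio2, the deiodinase that activates thyroid hormone inside brown adipocytes, was at 141, 112, 204, 148 and 193 CPM in the 5 FGF21 KO libraries and between 339.5 and 505 CPM (median 438) in the 6 dKO libraries. No dKO library overlapped an FGF21 KO library (log2 fold change 1.41, SE 0.19, adjusted p = 3.18e-06). The fatty acid binding protein Fabp3 rose from 527 to 1484 CPM and the glycerol kinase Gk from 291 to 709.9 CPM. Acot11, a thioesterase of brown fat, fell from 2019.7 to 483 CPM, and Aspg, an asparaginase, from 491 to 181 CPM. The identity markers Cidea and Elovl3 were higher, with log2 fold changes of 0.47 and 0.79. Prdm16, Ebf2 and Cox8b were lower (-0.73, -0.43 and -0.61), and Zic1 and Lhx8 did not pass. Of the 15 tested white adipocyte genes 5 were higher and 1 lower, beside 29.3% and 28.0% of all genes. The higher ones include the natriuretic peptide clearance receptor Npr3 (177 to 739 CPM). The lower one was Adipoq, the gene of adiponectin, at 662 ± 59.7 CPM (SD, n = 5) in FGF21 KO and 300.1 ± 115 CPM (SD, n = 6) in dKO. The white fat markers Lep, Retn, Nnat, Agt and Hoxc8 did not pass the edgeR test (adjusted p from 0.213 to 0.794).

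Transcriptional regulators and the adrenergic route that turns brown fat on moved in both directions as well. Ppargc1a, the coactivator PGC-1alpha that cold induces in brown fat, was at 65, 68.4, 92.5, 81.8 and 145 CPM in the 5 FGF21 KO libraries and between 90.9 and 152 CPM (median 106) in the 6 dKO libraries. The groups overlapped and the test was not passed (log2 fold change 0.32, adjusted p = 0.233). It was passed when FGF21 KO replicate 5 was left out (0.55, adjusted p = 0.0265) and under total-count scaling (0.7, adjusted p = 0.0075). Of 25 regulators, 7 were higher and 11 lower, beside 29.3% and 28.0% of all genes, and with total-count scaling 11 and 5. Irf4, a cold-responsive partner of PGC-1alpha, fell from 21.5 to 7.42 CPM, and the nuclear receptor Rxra from 94 to 54.3 CPM, while Esrrb rose from 6.63 to 13.1 CPM. Adrb3, the main adrenergic receptor of brown fat, averaged 316 ± 88.5 CPM (SD, n = 5) in FGF21 KO and 205 ± 37.7 CPM (SD, n = 6) in dKO and did not pass the test (adjusted p = 0.0693). It passed without FGF21 KO replicate 1 (log2 fold change -0.76, adjusted p = 0.0336), without the libraries high in muscle genes (adjusted p = 0.0435), with the compared groups alone (adjusted p = 0.0158) and in DESeq2 (adjusted p = 0.0366). Of 32 adrenergic and cAMP genes, 4 were higher and 12 lower, beside the same shares of all genes, which total-count scaling turned to 12 and 3 members. The adenylyl cyclase Adcy6 and the receptor Adrb1 fell, with log2 fold changes of -0.99 and -1.01, whereas the cyclase Adcy7 and the phosphodiesterase Pde4b rose by 1.42 and 1.4. Both thyroid hormone receptor genes were lower in dKO, Thra from 101 to 59.9 CPM and Thrb from 32 to 19.7 CPM.

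Genes of FGF signalling were measured here in animals without the hormone. Klb, which encodes beta-Klotho, was at 50.4 ± 3.24 CPM (SD, n = 5) in FGF21 KO and 60 ± 10.3 CPM (SD, n = 6) in dKO (log2 fold change 0.25, adjusted p = 0.0829). It passed when dKO replicate 1 or 6 was left out (adjusted p = 0.0359 and 0.048) and under total-count scaling (log2 fold change 0.63, adjusted p = 1.91e-05). Fgfr1, the receptor it pairs with, was lower in dKO (log2 fold change -0.54, SE 0.06, adjusted p = 1.97e-07). Of 23 genes of FGF receptors, ligands and feedback, 6 were higher and 3 lower, beside 29.3% and 28.0% of all genes, and 10 and 1 with total-count scaling. The ligand Fgf9 rose from 2.66 to 13.9 CPM and the ligand Fgf1 from 35.2 to 65.5 CPM. With FGF21 present, 12 of the same genes were higher and 3 lower, beside 30.2% and 29.9% of all genes. For the difference, 6 had an unadjusted p under 0.05, beside 7.27% of all genes, and none passed adjustment. Spry4, a feedback inhibitor of receptor tyrosine kinase signalling, had a difference of -0.84 (SE 0.33, unadjusted p = 0.0208, adjusted p = 0.594). Of the 22 fits that each leave out 1 library, only that without WT replicate 2 called it (-1.3, adjusted p = 0.00347).

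Single genes of other secreted signals changed, while the share of the list that did was close to that of all genes. Gdf15, a stress hormone that lowers food intake, stood at 0.193, 0.194, 0.0624, 0.185 and 0.165 CPM in the 5 FGF21 KO libraries and between 5.6 and 8.2 CPM (median 7.42) in the 6 dKO libraries. No overlap remained between the groups (log2 fold change 5.43, SE 0.36, adjusted p = 1.07e-10), and the increase with FGF21 present was 7.13 ± 0.39. The difference of the increases was -1.7 (SE 0.55, unadjusted p = 0.0056, adjusted p = 0.445), which did not pass. Of the 22 fits that each leave out 1 library, only that without WT replicate 4 called it (-2.91, adjusted p = 0.00275). Lcn2, an iron-binding siderophore carrier, rose from 0.519 to 18.2 CPM. Apln, the vascular peptide apelin, fell from 13.8 to 3.67 CPM, the NAD-producing enzyme and adipokine Nampt from 364 to 229 CPM, and the angiogenic factor Vegfa from 712 to 509.6 CPM. The call of Vegfa was lost under total-count scaling (log2 fold change -0.1, adjusted p = 0.365). Of 30 secreted signals, 8 were higher and 9 lower, beside 29.3% and 28.0% of all genes, and 12 and 5 with total-count scaling.

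Among genes proposed to produce heat without UCP1, a few changed strongly. Ucp2, a relative of UCP1 found in many cell types, was at 40.9, 43.3, 33.7, 41.1 and 49.5 CPM in the 5 FGF21 KO libraries and between 220.2 and 327 CPM (median 250.3) in the 6 dKO libraries. All dKO libraries lay above all FGF21 KO libraries, and the mean rose 6.25-fold (log2 fold change 2.64, SE 0.12, adjusted p = 3.85e-13). Of 26 uncoupling proteins and mitochondrial carriers, 9 were higher and 9 lower, near the 29.3% and 28.0% of all genes, and 14 and 8 with total-count scaling. In the list of creatine cycle genes the creatine kinase Ckb rose from 82.2 to 235 CPM and the phosphatase Phospho1 from 738 to 1036 CPM. Gamt fell from 2.49 to 1.6 CPM, and 5 of the 10 listed genes did not pass. Ak4, which the list includes although it encodes an adenylate kinase, fell from 26.2 to 2.22 CPM. The call of Gamt was lost under total-count scaling (adjusted p = 0.279) and without the libraries high in muscle genes (adjusted p = 0.101). Of 20 calcium cycling genes, 4 were higher and 3 lower, below the shares of all genes, and 7 and 1 with total-count scaling. Without dKO replicate 3, 5 were lower. The calcium pump Atp2a3 rose from 17.7 to 111 CPM and the release channel Itpr1 fell from 187 to 98.1 CPM. Macrophage genes rose in the same comparison (17 of 21). Which cells of the bulk tissue carry the changes of Ucp2, Ckb and Atp2a3 was not tested.

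Fat synthesis genes were lower in dKO. Of 25 genes of fatty acid and triglyceride synthesis, 19 were lower and 3 higher, beside 28.0% and 29.3% of all genes. Their median was -1.05. With total-count scaling 15 were lower and 4 higher. Acaca, the acetyl-CoA carboxylase that makes malonyl-CoA, was at 3437, 3374, 3832, 3083 and 3446 CPM in the 5 FGF21 KO libraries and between 253 and 998 CPM (median 398) in the 6 dKO libraries. The highest dKO library is replicate 4 and lies below the lowest FGF21 KO library (log2 fold change -2.84, SE 0.35, adjusted p = 1.14e-06). Its mitochondrial counterpart Acacb fell from 2786 to 921 CPM, the glycerol phosphate dehydrogenase Gpd1 from 14454 to 2868 CPM, and Mlxipl, which encodes the glucose-responsive transcription factor ChREBP, from 629 to 147 CPM. The genes that rose were Gk, Dgat1, which completes triglycerides (269.9 to 422 CPM), and Agpat9, a glycerol phosphate acyltransferase (8.86 to 43.1 CPM). Cholesterol synthesis genes were lower too, 19 of 24, with 1 higher and a median of -0.75, beside the same shares of all genes. With total-count scaling 12 were lower and 4 higher. Idi1 fell from 30.8 to 10.9 CPM and Fdft1, the squalene synthase, from 102 to 38.6 CPM, and Hsd17b7 was the member that rose (20.2 to 40.4 CPM). With FGF21 present, 22 and 19 members of these lists were lower.

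**Figure D2:**
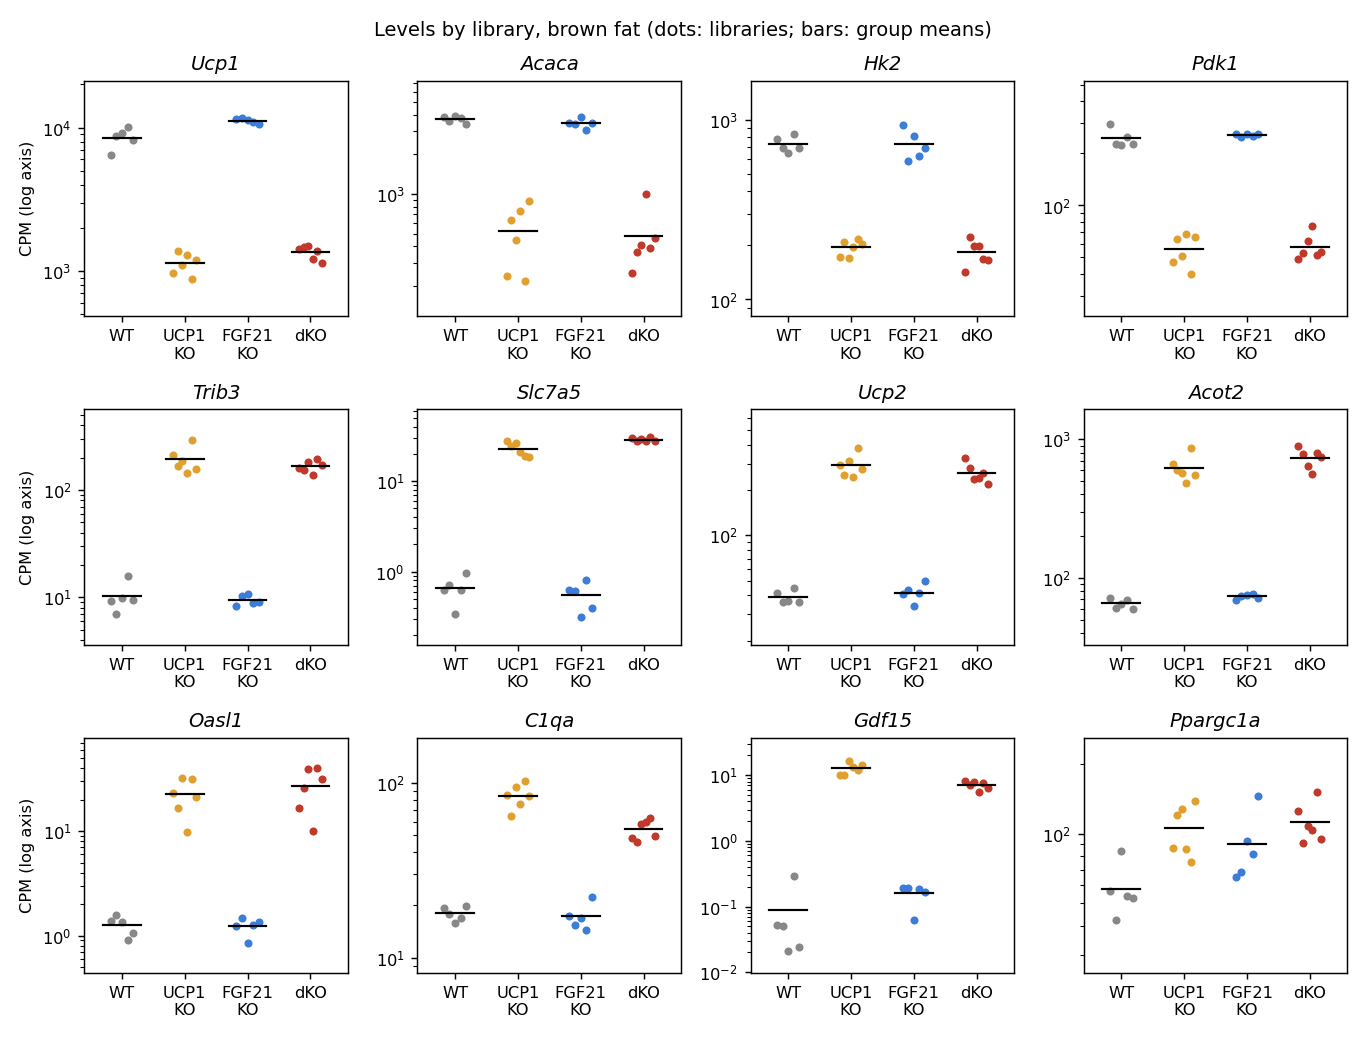
CPM on a log axis in each library of WT, UCP1 KO, FGF21 KO and dKO brown fat for 12 genes, with dots for libraries and bars for group means. In each panel but that of Ppargc1a the dKO libraries are separated from the FGF21 KO libraries, with Ucp1, Acaca, Hk2 and Pdk1 lower and Trib3, Slc7a5, Ucp2, Acot2, Oasl1, C1qa and Gdf15 higher in dKO.

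Transcripts of glucose use were lower at several steps. Hk2, the hexokinase that traps glucose in insulin-responsive tissue, was at 932, 588, 810.0, 624.6 and 692 CPM in the 5 FGF21 KO libraries and between 141 and 223 CPM (median 183) in the 6 dKO libraries. The groups did not overlap (log2 fold change -2.0, SE 0.12, adjusted p = 1.12e-11). Of 26 glucose uptake and glycolysis genes, 15 were lower and 3 higher (median -0.53), beside 28.0% and 29.3% of all genes. Total-count scaling gave 10 lower and 9 higher. Pkm, the pyruvate kinase, fell from 3971 to 1439 CPM and Gpi1, the glucose phosphate isomerase, from 2257 to 919 CPM. The higher members were Hk3, a hexokinase of myeloid cells (1.11 to 4.69 CPM), the widely expressed transporter Slc2a1 (8.98 to 17.7 CPM) and the regulator Pfkfb3 (656 to 803 CPM). The call of Pfkfb3 was lost without dKO replicate 2 or 5, without FGF21 KO replicate 2 or 4 and without the libraries high in muscle genes, at an adjusted p of 0.0545 to 0.0822. Pdk1, a kinase that switches pyruvate dehydrogenase off, was at 259.6, 251, 258, 251 and 258 CPM in the 5 FGF21 KO libraries and between 49.3 and 76.1 CPM (median 53.3) in the 6 dKO libraries. Again no library overlapped (log2 fold change -2.15, SE 0.13, adjusted p = 1.47e-11). Pdha1, the catalytic subunit that this kinase acts on, was also lower, from 3246 to 1364 CPM, whereas Cs, the citrate synthase, was higher, from 2645 to 3682 CPM. Of the 33 pyruvate dehydrogenase and citric acid cycle genes, 21 were lower and 1 higher, but with total-count scaling 12 were lower and 15 higher.

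Most glycogen genes were lower in dKO. Of 22, 13 were lower and 3 higher (median -0.86), beside 28.0% and 29.3% of all genes, and total-count scaling left 11 lower. Pygl, the liver form of glycogen phosphorylase, fell from 1418 to 275 CPM, Ppp1r3b, which brings a phosphatase to glycogen, from 694 to 151 CPM, and the branching enzyme Gbe1 from 559 to 196 CPM. Stbd1, which tethers glycogen to membranes, rose from 12.8 to 71.6 CPM. Some members of this list are expressed in muscle, and the list level per library was highest in FGF21 KO replicates 1 and 4, those with most muscle RNA. Without the libraries high in muscle genes, where the muscle gene median leans toward dKO, 13 members were lower and 4 higher.

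Respiratory chain genes were mostly lower by small amounts, and their direction depended on the scaling. Of 36 complex I subunits, 19 were lower and 2 higher, with a median of -0.19, beside 28.0% and 29.3% of all genes. Total-count scaling gave 5 lower and 19 higher. Without dKO replicate 1, 2 or 3 or FGF21 KO replicate 4 or 5, 0 were higher. Of 43 subunits of complexes II to V, 29 were lower and 1, the ATP synthase inhibitor gene Atpif1 (7.57 to 11.3 CPM), was higher, against 8 lower and 18 higher with total counts. Sdha, the flavoprotein of complex II, fell from 3549 to 2499.9 CPM. Mitochondrial ribosomal proteins split, with 17 higher and 29 lower of 74, beside 29.3% and 28.0% of all genes. Total-count scaling turned this to 58 higher and 6 lower. Mrpl19 rose from 33.6 to 64.7 CPM, and Mrpl50 fell from 112 to 49.7 CPM. Lonp1, the matrix protease that is induced in mitochondrial stress, rose from 339.8 to 968 CPM (log2 fold change 1.51, SE 0.09, adjusted p = 8.89e-12). Gpx4, the lipid peroxide reductase, fell from 871 to 469 CPM, and Pink1, a kinase that marks damaged mitochondria, from 244 to 148 CPM.

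Genes of fatty acid oxidation were called at shares near those of all genes. Of 24 mitochondrial oxidation genes, 8 were higher and 9 lower, beside 29.3% and 28.0% of all genes, and total-count scaling turned this to 17 and 1. Without FGF21 KO replicate 5, 5 were higher and 10 lower, and without the libraries high in muscle genes 4 and 10. With FGF21 present, 2 of the same genes were higher and 16 lower, and 9 had an unadjusted p under 0.05 for the difference, beside 7.27% of all genes, none of which passed adjustment. Cpt1a rose from 20 to 58.9 CPM, while Echs1 and Hadhb of the oxidation spiral fell from 948 to 618 CPM and 4101 to 2919 CPM. The call of Hadhb was lost under total-count scaling (adjusted p = 0.0776). Of 30 peroxisomal genes, 12 were higher and 5 lower, beside 29.3% and 28.0% of all genes, and 24 and 2 with total-count scaling. The bifunctional enzyme Ehhadh of peroxisomal oxidation rose from 228 to 1539 CPM and the thiolase Acaa1b from 31.4 to 199 CPM (log2 fold change 2.66, SE 0.13, adjusted p = 1.42e-12).

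Most acyl-CoA thioesterases, which release fatty acids from coenzyme A, were higher in dKO. Acot2, the mitochondrial matrix thioesterase, was at 69.1, 74, 75.7, 76.7 and 71.9 CPM in the 5 FGF21 KO libraries and between 558 and 897 CPM (median 767) in the 6 dKO libraries. The mean was 10-fold higher and the groups did not overlap (log2 fold change 3.33, SE 0.13, adjusted p = 5.01e-14). Of 14 thioesterases, 10 were higher and 3 lower (median 1.0), beside 29.3% and 28.0% of all genes. The summed level of the 14 was lower in dKO, at 1396 to 1692 CPM (median 1631) against 2144 to 2495 CPM (median 2320) in FGF21 KO. The peroxisomal Acot5 rose from 0.244 to 11.3 CPM. Scd3, a desaturase, rose from 4.19 to 159 CPM, whereas the elongases Elovl6 and Elovl5 fell from 2105 to 843 CPM and 306 to 142 CPM. Of 18 elongases and desaturases 7 were higher and 7 lower, beside 29.3% and 28.0% of all genes. Near-identical members of the Acot and Scd families can share reads, so single values within them are uncertain. On the lipid droplet the coat proteins Plin3 and Plin4 fell from 133 to 56.7 CPM and 811 to 407 CPM, while Lpl, which frees fatty acids from lipoproteins, rose from 3728 to 7044 CPM.

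**Figure D3:**
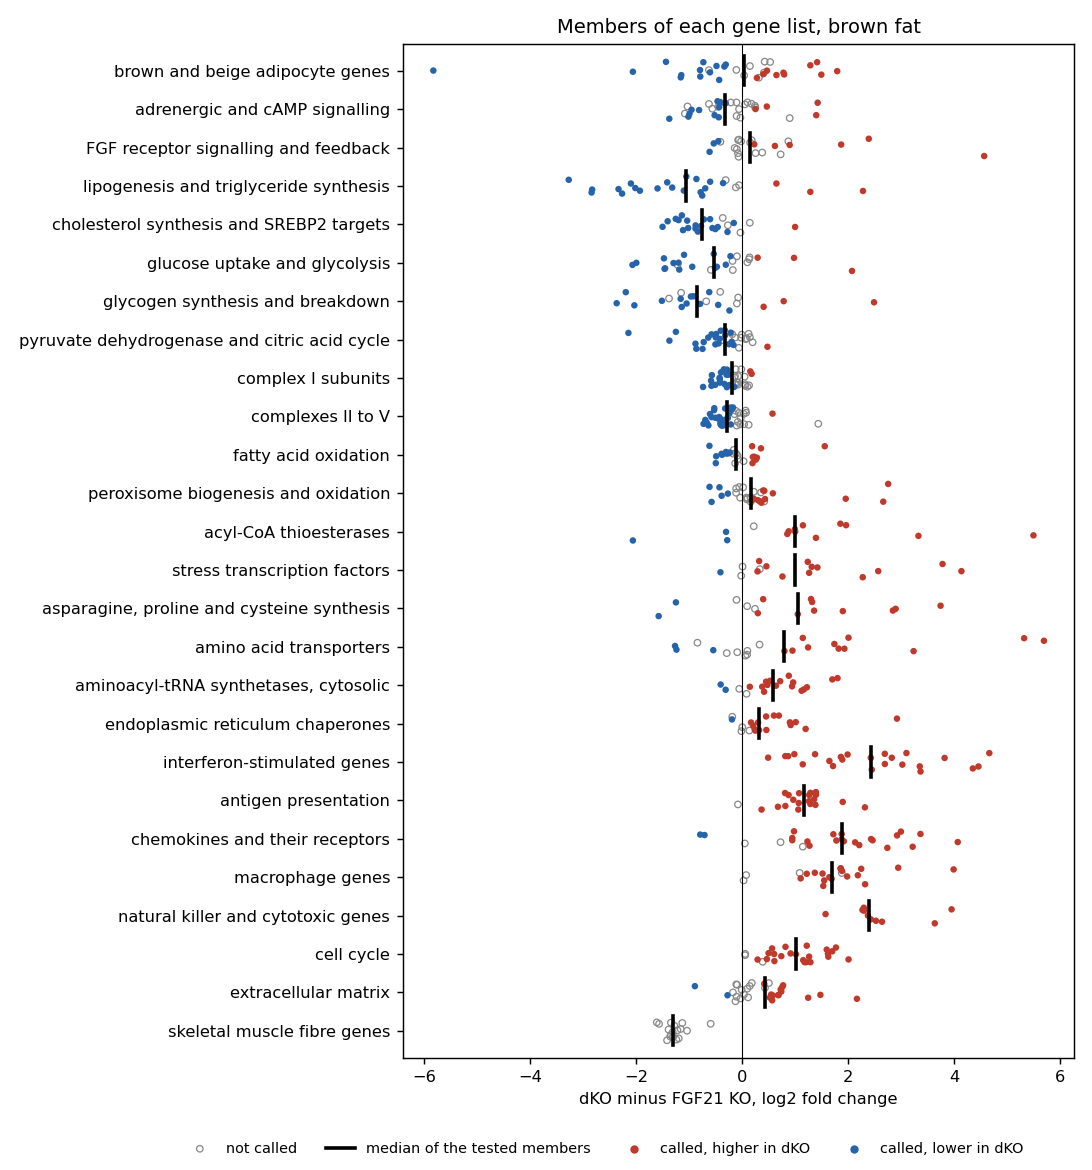
Log2 fold change of dKO against FGF21 KO for the tested members of 26 gene lists, filled where the gene passed an adjusted p of 0.05 (red higher, blue lower), open where it did not, with a bar at the list median. The medians of the lipogenesis, cholesterol, glucose and glycogen lists lie left of 0. Those of the stress, amino acid, interferon and immune lists lie right of 0, and none of the 18 muscle fibre genes passed.

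Transcription factor genes of the stress response were higher in dKO. Atf4 mRNA was at 127, 89.3, 131, 133 and 128 CPM in the 5 FGF21 KO libraries and between 262 and 323 CPM (median 281) in the 6 dKO libraries. The groups did not overlap (log2 fold change 1.24, SE 0.11, adjusted p = 5.48e-09). Trib3, a pseudokinase that ATF4 induces, was at 8.25, 10.3, 10.7, 8.93 and 9.03 CPM in the 5 FGF21 KO libraries and between 138 and 193 CPM (median 165) in the 6 dKO libraries. Its mean was 17.6-fold higher (log2 fold change 4.14, SE 0.21, adjusted p = 3.58e-12), beside an increase of 4.23 ± 0.21 with FGF21 present. Of 16 genes of stress transcription factors and their close targets, 12 were higher and 1, Cebpb, was lower (log2 fold change -0.41, SE 0.13, adjusted p = 0.0101), with a median of 1.0. Total-count scaling lost the call of Cebpb (adjusted p = 0.831). Ddit3, which encodes the factor CHOP, rose from 21.5 to 128 CPM, and Atf3 from 5.12 to 70.1 CPM.

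ATF4 together with C/EBP proteins binds composite elements read as TGATGNAA. The promoter window from 250 bases before to 50 bases after the start of each gene was searched for these letters on both strands. They occur in 346 of 11782 tested genes with a promoter entry (2.94%), in 5 of 14 stress factor genes (35.7%), 3 of 12 asparagine, proline and cysteine genes (25%), 3 of 16 amino acid transporter genes (18.8%), 5 of 13 cytosolic tRNA synthetase genes (38.5%) and 0 of 15 serine, glycine and folate enzyme genes. A match describes the letters and is not evidence of binding. The stretches around the match are shown for 6 genes that rose, 5′ to 3′ on the strand of the gene, from RefSeq on GRCm38.p6, with the match in capitals. Where the match lies on the other strand, its reverse complement stands in capitals.
Trib3, chr2:152344013-152344072, minus strand: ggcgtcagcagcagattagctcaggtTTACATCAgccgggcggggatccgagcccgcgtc
Atf3, chr1:191183410-191183469, minus strand: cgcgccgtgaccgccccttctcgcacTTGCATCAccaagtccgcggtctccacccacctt
Asns, chr6:7693199-7693258, minus strand: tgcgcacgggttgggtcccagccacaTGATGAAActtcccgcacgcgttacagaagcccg
Pycr1, chr11:120643818-120643877, minus strand: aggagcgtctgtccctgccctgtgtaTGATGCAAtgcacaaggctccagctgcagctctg
Slc7a11, chr3:50443627-50443686, minus strand: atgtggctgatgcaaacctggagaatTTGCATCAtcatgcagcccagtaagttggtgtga
Yars, chr4:129189880-129189939, plus strand: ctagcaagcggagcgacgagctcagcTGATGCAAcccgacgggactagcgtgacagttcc

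Genes of amino acid synthesis and transport were mostly higher in dKO. Slc7a5, the carrier LAT1 for large neutral amino acids, was at 0.627, 0.608, 0.312, 0.803 and 0.395 CPM in the 5 FGF21 KO libraries and between 27.5 and 30.7 CPM (median 28.5) in the 6 dKO libraries. The mean was 52.5-fold higher in dKO (log2 fold change 5.69, SE 0.22, adjusted p = 5.09e-14). Slc7a11, which exchanges cystine for glutamate and whose promoter stretch holds the letters once more on the other strand, rose from 0.111 to 4.28 CPM. Of 21 amino acid transporters, 11 were higher and 3 lower, beside 29.3% and 28.0% of all genes. The lower ones were the glutamine carrier Slc1a5 (631 to 267 CPM) and the glutamate carriers Slc1a3 and Slc1a1 (-1.27 and -0.55). The call of Slc1a1 was lost under total-count scaling (adjusted p = 0.411) and without the libraries high in muscle genes (adjusted p = 0.101). Of 15 asparagine, proline and cysteine genes, 10 were higher and 2 lower. Their summed level was lower in dKO, at 2024 to 2769 CPM (median 2144) against 3144 to 3913 CPM (median 3662) in FGF21 KO. Asns, which makes asparagine, rose from 69.6 to 174 CPM, Pycr1 and Aldh18a1, which make proline, from 0.688 to 4.94 CPM and 3.29 to 24.5 CPM, and Cth, which makes cysteine, from 3.5 to 47 CPM. Glul, the glutamine synthetase, fell from 3126 to 1314 CPM and Prodh, which breaks proline down, from 46 to 15.4 CPM.

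Most genes of the serine and folate pathway rose. Of 19 genes, 11 were higher and 5 lower. Mthfd2, the mitochondrial folate enzyme that is low in most adult tissue, went from 5.32 to 91.2 CPM (log2 fold change 4.1, SE 0.21, adjusted p = 6.28e-12), and Psat1, which makes phosphoserine, from 5.92 to 61.7 CPM. Sardh, which breaks sarcosine down, fell from 37.8 to 14.6 CPM. None of the 15 genes of this list with a promoter entry holds TGATGNAA in the searched window, which says nothing on whether the factor acts on them. Of 20 cytosolic tRNA synthetases, 16 were higher and 2 lower (median 0.58); Nars rose from 98.6 to 230.1 CPM and Yars from 45.8 to 89.3 CPM. Of 20 endoplasmic reticulum chaperones, 15 were higher and 1 lower, beside 29.3% and 28.0% of all genes. Ero1l, the oxidase that forms disulfide bonds, rose from 36.1 to 273 CPM, with a difference between both responses of -0.48 (SE 0.18, unadjusted p = 0.0162, adjusted p = 0.575).

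Interferon-stimulated genes rose without exception among those tested. All 24 tested members passed the test higher in dKO, with a median log2 fold change of 2.44; without the libraries high in muscle genes 23 did. Oasl1, which inhibits translation of interferon regulators, was at 1.23, 1.48, 0.842, 1.27 and 1.35 CPM in the 5 FGF21 KO libraries and between 10 and 40.2 CPM (median 28.5) in the 6 dKO libraries. The dKO libraries spread over a wide range and none reached down to the FGF21 KO level (log2 fold change 4.46, SE 0.39, adjusted p = 1.01e-08). The antiviral GTPases Mx1 and Mx2 rose from 0.452 to 9.13 CPM and 0.865 to 6.14 CPM, and Oas3, which senses double-stranded RNA, from 0.275 to 6.97 CPM. The summed level of the list ran from 249 to 331 CPM (median 282) in FGF21 KO and 562 to 1583 CPM (median 1087) in dKO. It was lowest among the dKO libraries in replicates 4 and 1. With FGF21 present, 23 of the 24 rose, and 0 members had an unadjusted p under 0.05 for the difference.

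A direct repeat of GAAA with any 2 bases between its copies, the core of the element that interferon-activated factors bind, was searched in the same promoter windows on both strands. It occurs in 459 of 11782 tested genes (3.9%) and in 12 of 18 interferon-stimulated genes with an entry (66.7%), and in 2 of 15 antigen presentation genes (13.3%). The stretches of 5 genes that rose show where the repeat sits near the start, on the strand of the gene in GRCm38.p6 from RefSeq, with 1 match in capitals. Isg15 holds overlapping matches, as does Bst2, whose stretch is not shown.
Isg15, chr4:156200849-156200910, minus strand: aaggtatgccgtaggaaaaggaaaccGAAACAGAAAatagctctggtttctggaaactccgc
Oas3, chr5:120777699-120777760, minus strand: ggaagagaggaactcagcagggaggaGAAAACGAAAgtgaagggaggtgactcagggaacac
Rsad2, chr12:26456537-26456598, minus strand: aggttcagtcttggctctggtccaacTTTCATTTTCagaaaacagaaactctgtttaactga
Ifit1, chr19:34640778-34640839, plus strand: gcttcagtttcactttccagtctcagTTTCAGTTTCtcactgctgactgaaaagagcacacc
B2m, chr2:122147522-122147583, plus strand: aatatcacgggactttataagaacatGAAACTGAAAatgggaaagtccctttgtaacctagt

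Genes that hold such matches span a wide range of levels. Isg15, a ubiquitin-like modifier, rose from 3.09 to 31.9 CPM, Rsad2, the antiviral enzyme viperin, from 22.8 to 195 CPM, Ifit1, which binds foreign RNA, from 3.21 to 26.1 CPM, and Bst2, which tethers budding viruses, from 15.4 to 83.7 CPM. B2m, the shared light chain of class I antigen presentation, was at 316, 343, 270.4, 299 and 490.1 CPM in the 5 FGF21 KO libraries and between 905 and 1699 CPM (median 1224) in the 6 dKO libraries. The groups did not overlap (log2 fold change 1.9, SE 0.18, adjusted p = 2.68e-08). Of 20 antigen presentation genes, 19 were higher and 0 lower, with the class I heavy chain gene H2-K1 at 235 to 562 CPM. Class I heavy chain genes resemble each other closely, so the split of reads between them is uncertain.

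Macrophage and lymphoid markers rose as well. C1qa, a complement chain made by macrophages, was at 17.4, 15.4, 16.9, 14.4 and 22.3 CPM in the 5 FGF21 KO libraries and between 46 and 62.5 CPM (median 53.8) in the 6 dKO libraries (log2 fold change 1.65, SE 0.12, adjusted p = 2.97e-10). Of 21 macrophage genes, 17 were higher and 0 lower (median 1.69), beside 29.3% and 28.0% of all genes. Their summed level was 214 to 492 CPM (median 229.6) in FGF21 KO and 833 to 1146 CPM (median 986) in dKO. The highest FGF21 KO library is replicate 5 at 492 CPM; without it 18 members were higher. Replicate 5 also had the highest summed level of natural killer and cytotoxic genes in its group, at 6.0 CPM against 0.749 to 1.6 in the other 4, and all 10 of these genes passed higher. Without it 10 did. Of 25 chemokines and receptors 20 were higher and 2 lower, with Ccl8 from 1.04 to 9.7 CPM and Cxcl10 from 0.423 to 7.17 CPM. Their summed level overlapped, at 380 to 455 CPM (median 434) in FGF21 KO and 371 to 430 CPM (median 412) in dKO. The stromal chemokine Cxcl12 and Cxcl14 fell, from 348 to 201 CPM and 13.6 to 8.34 CPM, and total-count scaling lost the call of Cxcl14 (adjusted p = 0.144). Of 19 lymphocyte genes 15 were higher and 0 lower. The T cell gene Cd4 rose from 0.88 to 3.9 CPM.

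Immune and dividing-cell lists had smaller median increases without FGF21 than with it. For macrophage genes the median log2 fold change was 1.69 without FGF21 and 2.29 with it, and 12 of 21 members had an unadjusted p under 0.05 for the difference, beside 7.27% of all genes. For natural killer genes the medians were 2.4 and 3.66, with 5 of 10 members. Cell cycle genes had medians of 1.02 and 1.5, with 11 of 25. Ccl2, which attracts monocytes, rose by 2.92 ± 0.3 without and 4.42 ± 0.32 with FGF21. No member of these lists passed adjustment in edgeR. Interferon-stimulated genes had medians of 2.44 and 2.1. FGF21 KO replicate 5, with its higher immune marker level, lies in the reference group of the first comparison. That library was picked for its high level, so a rise of the medians on leaving it out follows from the choice. Without FGF21 KO replicate 5 the median of the comparison without FGF21 was 1.89 for macrophage genes, 3.21 for natural killer genes and 1.12 for cell cycle genes. These values are nearer to the medians with FGF21, and the cause of the smaller increases was not tested. The members with an unadjusted p under 0.05 for the difference were then 6, 1 and 7, beside 5.47% of all genes. The comparison with FGF21 also holds a library with a high natural killer level. UCP1 KO replicate 5 had a summed level of 32.4 CPM, and the next library of its group, replicate 3, had 15.5 CPM. For macrophage genes UCP1 KO replicate 3 was higher, and for cell cycle genes UCP1 KO replicate 5 was the lowest of its group. How far UCP1 KO replicate 5 raises the natural killer median of 3.66 was not tested.

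**Figure D4:**
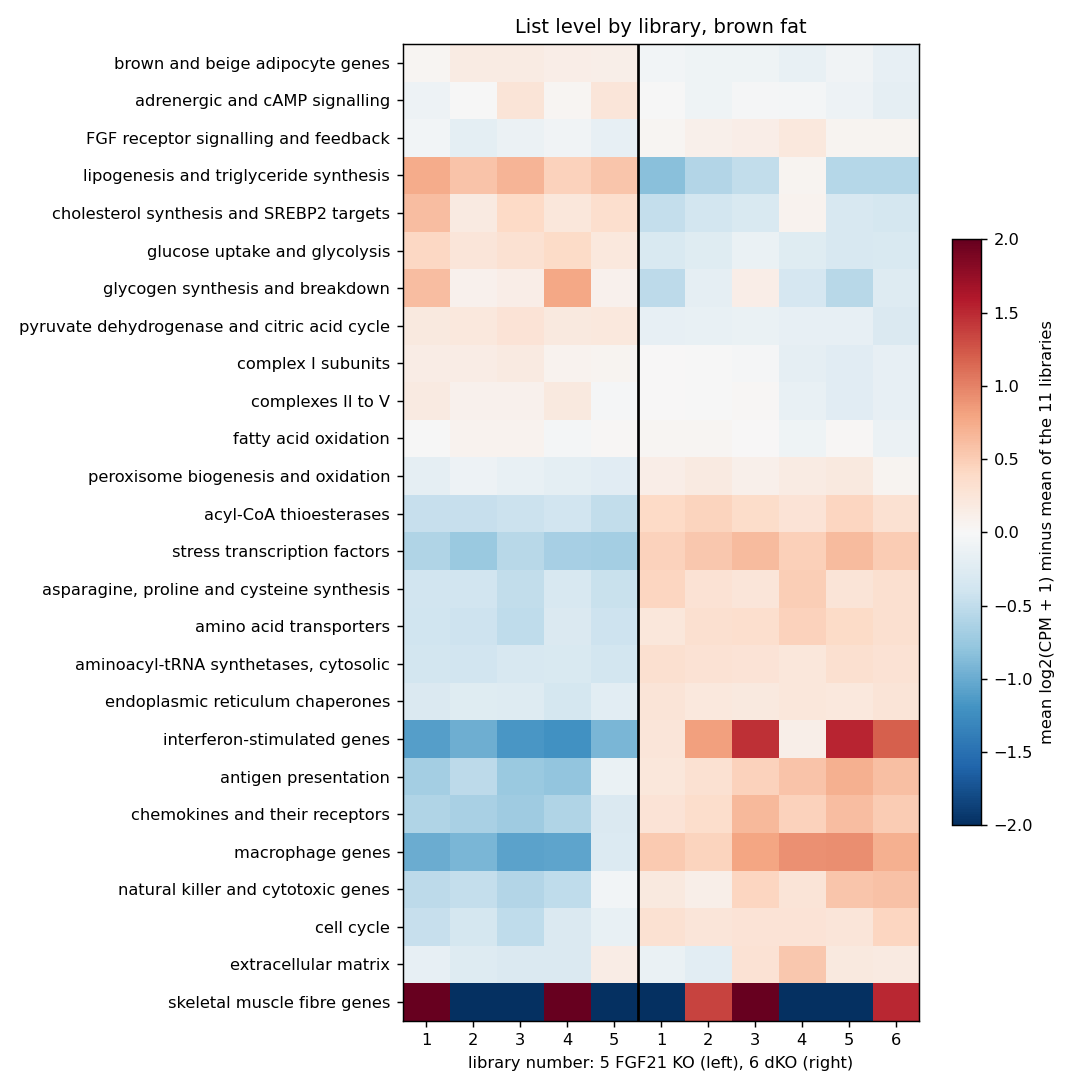
Mean log2(CPM + 1) of the tested members of 26 gene lists in the 5 FGF21 KO (left) and 6 dKO (right) libraries, shown as the difference from the mean of the 11 libraries, with colours capped at 2 either way. Macrophage and antigen presentation genes stand out in FGF21 KO replicate 5, interferon-stimulated genes vary among dKO libraries, and muscle fibre genes vary within both groups.

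Dividing-cell genes rose along with the immune markers. Of 25 cell cycle genes, 22 were higher and 0 lower; Mki67 went from 2.58 to 8.37 CPM and Cdk1 from 0.746 to 3.0 CPM. Of 30 matrix genes 14 were higher and 2 lower, beside 29.3% and 28.0% of all genes, and without the libraries high in muscle genes 7 were higher. Without dKO replicate 4 or FGF21 KO replicate 2, 3 or 4, 8 or 9 were. Tnc, the wound matrix protein tenascin C, rose from 2.89 to 8.03 CPM, and the protease inhibitor Timp1 from 0.44 to 1.97 CPM. Endothelial genes were lower in 7 of 16 cases and higher in 1, Plvap (5.82 to 14.2 CPM), beside 28.0% lower and 29.3% higher of all genes. With total-count scaling 4 were higher and 0 lower. Rgs5, a pericyte gene, fell from 586 to 312 CPM, and Vim, which encodes the filament protein vimentin, from 488 to 158 CPM. Of 14 nerve and Schwann cell genes 4 were lower and 3 higher, near the 28.0% and 29.3% of all genes. Ntrk2, the receptor of the neurotrophin BDNF, fell from 339 to 102 CPM, and the Schwann cell factor Sox10 rose from 1.0 to 1.99 CPM. Of the 4 blood genes tested none passed in edgeR (0 at an unadjusted p under 0.05), DESeq2 called 0 higher and 0 lower, and their summed level was 164 to 382 CPM (median 245) in FGF21 KO and 110.3 to 241 CPM (median 166) in dKO.

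Lysosomal genes were raised in 16 of 27 cases and lowered in 4, beside 29.3% and 28.0% of all genes. Npc1, which exports cholesterol from lysosomes, rose from 60.3 to 258 CPM (log2 fold change 2.1, SE 0.14, adjusted p = 4.44e-11). Of 23 NRF2 target genes 11 were higher and 9 lower, beside 29.3% and 28.0% of all genes, and 14 and 5 with total-count scaling. The carbonyl reductase Cbr3 rose from 3.13 to 48.8 CPM, whereas Tkt, Taldo1 and Pgd, the enzymes of the pentose phosphate pathway that supply NADPH, fell from 5443 to 1285 CPM, 1117 to 502 CPM and 1206 to 559 CPM. Of 32 proteasome subunits 10 were higher and 8 lower, near the shares of all genes, and with total-count scaling 31 and 0. Psmb5 rose from 103 to 210.2 CPM. Of 19 clock genes 2 were higher and 7 lower, beside the same shares of all genes, which total-count scaling turned to 6 and 3 members. Without FGF21 KO replicate 1, 4 were higher. Bhlhe40, a repressor in the clock that hypoxia also induces, fell from 253 to 19.5 CPM (log2 fold change -3.7, SE 0.38, adjusted p = 1.16e-07). Of the 2 cold-inducible RNA-binding proteins, Rbm3 rose from 34.3 to 63.4 CPM and Cirbp fell from 16.3 to 12.2 CPM, a call that total-count scaling lost (adjusted p = 0.811).

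The remaining lists are read against the same 29.3% and 28.0% of all genes. Of 22 insulin and IGF signalling genes, 3 were higher and 10 lower, but 8 and 2 with total-count scaling. Akt2, the kinase that carries the insulin signal to glucose uptake, fell from 508 to 301.6 CPM, and Irs3, an insulin receptor substrate of rodent fat, from 29.7 to 5.74 CPM. Of 22 genes of branched-chain amino acid breakdown, 2 were higher and 13 lower, but 9 and 9 with total-count scaling. Ivd, the isovaleryl-CoA dehydrogenase of leucine breakdown, fell from 258 to 149 CPM. Of 19 iron genes 7 were higher and 5 lower, with total-count scaling 12 and 3. Slc25a37, which imports iron into mitochondria, rose from 17 to 29.7 CPM, and Fth1, the ferritin heavy chain, fell from 2154 to 1330.0 CPM. Of 36 genes of lipid droplets and lipolysis 14 were higher and 10 lower, and of 14 acute phase genes 10 were higher. Of 15 genes of lipid-associated macrophages 11 were higher and 2 lower, and of 9 neutrophil and mast cell genes 5 and 1. Kit, the growth factor receptor of mast cells, was the lower one (19.5 to 5.61 CPM). Of 18 cytosolic heat shock genes 3 were higher and 7 lower, which total-count scaling turned to 3 and 1. Hsp90ab1, a cytosolic chaperone, fell from 1457 to 851 CPM. Mitochondrial chaperones and proteases were higher in 10 and lower in 8 of 20, fusion, fission and mitophagy genes in 3 and 9 of 19, and mitochondrial antioxidant genes in 2 and 7 of 15. With total-count scaling these became 15 and 2, 10 and 4, and 8 and 4. Of 14 glucocorticoid response genes 3 were higher and 5 lower, of 17 immediate early genes 3 and 3, and of 14 preadipocyte and fibroblast genes 5 and 3. Of 10 smooth muscle and pericyte genes 5 were lower, and without dKO replicate 3, 8 were. The 1 tested epithelial gene was higher.

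Genes that lie near Ucp1 on chromosome 8 were counted apart, since they can be inherited with the deleted allele. Ucp1 itself spans chr8:83290348-83298456 in mm10. Within 10 Mb of it, 87 of 121 tested genes (71.9%) passed, 43 higher and 44 lower, beside 57.3% of all genes. Within 10 Mb of Fgf21 on chromosome 7, where both groups carry the same deletion, 85 of 145 (58.6%) did. The genes named here were chosen after their values were seen. Rnf150, which ends 0.2 Mb from Ucp1 and encodes a ring finger protein, had a mean of 55.2 ± 2.71 CPM (SD, n = 5) in FGF21 KO and 4.24 ± 1.11 CPM (SD, n = 6) in dKO (log2 fold change -3.7, SE 0.2, adjusted p = 1.07e-11). Scoc, 0.14 Mb away, went from 49.3 to 21.7 CPM (log2 fold change -1.18, SE 0.06, adjusted p = 1.01e-12). With FGF21 present Rnf150 and Scoc had log2 fold changes of -2.98 and -1.13. Linked chromosome segments and the loss of UCP1 cannot be told apart in this design.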

How the data were processed

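Per the labels' protocols, the authors selected poly(A) RNA of brown fat and sequenced strand-specific libraries from both ends, with reads of 100 bp. The submitters' processing notes name STAR, HTSeq and the mouse build mm10, with no version or setting given. The authors deposited raw counts, 1 table for each library. Each file had 32765 rows; 66 repeated names were summed, 1 row without a gene (at most 3.34e-05% of a library's counts) was dropped, and 32698 gene rows stayed, of which 24227 matched the reference gene table by name. Groups come from the labels, and replicate numbers follow the order of deposit.

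Counts of all 22 brown fat libraries were fitted with edgeR 4.0.16 (R 4.3.3): filterByExpr, TMM, robust quasi-likelihood F test, Benjamini-Hochberg over 16033 genes. Standard errors were taken as the size of the log2 fold change over the square root of F. Intervals of 95% are the value ± 2.1 SE, from the t distribution with 18 degrees of freedom. Other settings and DESeq2 1.42.0 served as alternatives, and the fit was tested on simulated data. Replicate pairs differed beyond counting error, with chi-squared per degree of freedom from 12.1 to 269 over 50 pairs. The biological coefficient of variation was 0.257. For genes with few counts, the fitted fold change depends on the prior count.

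The members and the 61 gene lists were chosen with earlier results of these data known, so a list's direction is no independent evidence. Genes were named by rule: Ucp1, Fgf21, Nnt and a few central genes; the 10 largest called changes per direction with no overlap and at least 5 CPM; and per list the 2 called members with the smallest p in each direction, with a further 2 in lists of over 20 tested genes. The rule named 302 genes, and the text prints part of them, chosen with their values known. The rule's part on the difference named none, as none passed. Genes named for DESeq2, for promoter stretches or for nearness to Ucp1 lie outside the rule. So do a few members named to complete a count and some markers of brown and white fat. Promoter windows come from RefSeq on GRCm38.p6. Figures were drawn with matplotlib.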

Additional observations from a re-analysis of the deposited data

Results flagged for a closer look

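Single libraries stood apart from the rest of their group in CPM for some of the genes named above, by the gap of the highest or lowest library relative to the range of its group. Chance alone flags about 1 in 20 groups, and 20 of 348 groups examined were marked. Several marks fall on the same library.

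In dKO, replicate 4 was the highest library for 6 of the marked genes, of which Acaca and Elovl6 encode enzymes of fatty acid synthesis. Acaca was at 998 CPM in dKO replicate 4, against 253 to 462 in the others. Elovl6 was at 1371 CPM in dKO replicate 4, against 597 to 798 in the others. Adipoq was at 534 CPM in dKO replicate 4, against 243 to 261 in the others. Glul was at 1872 CPM in dKO replicate 4, against 1116 to 1335 in the others. Gamt was at 2.89 CPM in dKO replicate 4, against 1.0 to 1.63 in the others. Fgfr1 was at 57.3 CPM in dKO replicate 4, against 44.7 to 48.9 in the others. The same library had the lowest summed level of interferon-stimulated genes among the dKO libraries, at 562 CPM. Ckb was at 361 CPM in dKO replicate 1, against 169.9 to 233 in the others. Slc1a1 was at 4.26 CPM in dKO replicate 1, against 6.27 to 7.29 in the others. Lpl was at 5999 CPM in dKO replicate 6, against 7058 to 7348 in the others.

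In FGF21 KO, replicate 4 was the highest library for 4 of the marked genes. Fgf21 was at 0.402 CPM in FGF21 KO replicate 4, against 0 to 0.0483 in the others. Csn3 was at 0.185 CPM in FGF21 KO replicate 4, against 0 to 0.0312 in the others. Vmn2r3 was at 0.0309 CPM in FGF21 KO replicate 4, which is 1 count, and had 0 counts in the others. Nnt was at 17.7 CPM in FGF21 KO replicate 4, against 4.45 to 6.97 in the others. That library also had the highest muscle gene level of its group, and whether both have a common source was not tested. Mx1 was at 0.923 CPM in FGF21 KO replicate 5, against 0.241 to 0.413 in the others. Atf4 was at 89.3 CPM in FGF21 KO replicate 2, against 127 to 133 in the others. Gdf15 was at 0.0624 CPM in FGF21 KO replicate 3, against 0.165 to 0.194 in the others. Hsp90ab1 was at 1631 CPM in FGF21 KO replicate 3, against 1395 to 1435 in the others. Ptprn2 was at 3.67 CPM in FGF21 KO replicate 2, against 5.38 to 5.93 in the others. Plin4 was at 626 CPM in FGF21 KO replicate 1, against 818 to 895 in the others. Ak4 was at 25 CPM in FGF21 KO replicate 1, against 26.3 to 26.7 in the others.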

How the results depend on the processing

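No paired analysis was possible because the labels carry no replicate numbers. The count of 9179 genes called for dKO against FGF21 KO stayed between 8504 and 9406 with RLE size factors, no filter on low counts, the compared groups alone, Ucp1 left out of library sizes, the libraries high in muscle genes left out, the muscle gene level as covariate, DESeq2, or genes within 10 Mb of Ucp1 left out. Leaving out each of the 11 libraries gave 8564 to 8988. Total-count scaling, which was chosen after seeing the data, called 10719, of which 87.2% were higher instead of 51.2%. Tested against a minimum change of 1.5-fold, 2709 genes remained past the threshold (1849 higher, 860 lower), and for UCP1 KO against WT 3206, as that test asks for larger changes. Leaving out each library gave 9192 to 9625 there.

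The difference between both responses called 0 genes in the main setting, 1 without a filter on low counts (Fut1), and 23 in DESeq2. Over the 22 fits that each leave out 1 library it called 0 to 4. The calls were Spry4 without WT replicate 2; Car6, Gdf15, Stac2 and Upp1 without WT replicate 4; Akap12 and Fut1 without UCP1 KO replicate 5; and Fut1 without dKO replicate 1, dKO replicate 6 or FGF21 KO replicate 1. Among single genes named, brown and white fat markers outside the rule set aside, the direction turned under total-count scaling for Akap12 (0.23) and for Spry4 (0.31). Calls of Cebpb, Cirbp, Cxcl14, Gamt, Hadhb, Slc1a1 and Vegfa were lost under total-count scaling, and those of Gamt and Slc1a1 also without the libraries high in muscle genes (adjusted p = 0.101 for each). The cause was not tested. Depth limits genes far below 1 CPM, where a library holds few counts.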
